A study of Mus musculus with 8 samples.

Results

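The genes described here are 39 members of the interferon response and of MHC class I antigen presentation. They are a list of named genes, drawn up with earlier results of these data known, and were taken by symbol out of 55487 genes in the count table. All 39 had enough counts to be tested. Of these, 28 belong to the interferon response (7 transcription regulators, 4 nucleic acid sensors and 17 effectors) and 11 to antigen presentation. RNA was sequenced from the whole sciatic nerve on postnatal day 6 in mice, when Schwann cells, the glia of peripheral nerve, divide, differentiate and wrap axons in myelin. CNP-Cdk7cKO nerves (n = 4) came from CNPcre/+ Cdk7lox/lox mice, in which Cre recombinase expressed from the Cnp gene removes Cdk7, a kinase of the transcription machinery, from cells that use this gene. Ctrl nerves (n = 4) came from CNP+/+ Cdk7lox/lox mice, which carry the floxed Cdk7 alleles too but no Cre and no altered Cnp allele. The labels do not say that each library is a separate animal, so the p-values speak of variation among libraries. The nerve also holds fibroblasts, endothelial cells and macrophages, whose RNA is counted together with that of Schwann cells.

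Interferons are secreted proteins that bind receptors on the cell surface and, through JAK kinases, activate STAT transcription factors. Type I interferons act through a complex with Stat2 and Irf9 that binds a promoter element called the ISRE, while interferon gamma acts through paired STAT proteins that bind the GAS element. MHC class I molecules show peptides from inside the cell to T cells: the immunoproteasome (Psmb8, Psmb9, Psmb10) cuts the peptides, the transporter Tap1-Tap2 moves them into the endoplasmic reticulum, tapasin (Tapbp) helps load them, and the heavy chains pair with B2m. In resting nerve these genes are read at a basal level, and many of them are known to be induced together by interferon.

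The promoter stretches of 5 members are shown because they set genes that rose or fell (Tap1, Irf8 and Rsad2) beside genes with an ISRE core that did not pass the test (B2m and Isg15). They are RefSeq sequences on GRCm38.p6, read 5′ to 3′ on the strand of the gene and ending at the base before the transcription start. Capitals mark the ISRE core (GAAA and GAAA with 2 bases of any kind between, NN) or the GAS core (TTCNNNGAA), searched on both strands; the Tap1 stretch holds neither, and the Rsad2 match lies on the opposite strand.
Tap1 (chr17:34187331-34187555, + strand): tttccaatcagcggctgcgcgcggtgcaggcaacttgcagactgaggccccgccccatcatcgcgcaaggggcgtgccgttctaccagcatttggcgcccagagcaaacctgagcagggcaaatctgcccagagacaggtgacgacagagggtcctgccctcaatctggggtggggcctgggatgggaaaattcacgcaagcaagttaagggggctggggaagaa
B2m (chr2:122147537-122147686, + strand): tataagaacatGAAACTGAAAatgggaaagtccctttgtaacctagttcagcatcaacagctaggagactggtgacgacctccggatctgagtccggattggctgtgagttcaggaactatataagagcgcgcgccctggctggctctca
Irf8 (chr8:120736178-120736357, + strand): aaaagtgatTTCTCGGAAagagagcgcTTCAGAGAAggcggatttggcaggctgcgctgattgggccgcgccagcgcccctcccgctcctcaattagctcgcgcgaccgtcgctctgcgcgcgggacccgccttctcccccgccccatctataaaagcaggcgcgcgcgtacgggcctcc
Isg15 (chr4:156200819-156200968, - strand): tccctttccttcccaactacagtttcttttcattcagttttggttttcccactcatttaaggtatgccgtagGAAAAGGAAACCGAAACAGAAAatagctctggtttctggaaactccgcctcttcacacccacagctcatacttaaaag
Rsad2 (chr12:26456453-26456602, - strand): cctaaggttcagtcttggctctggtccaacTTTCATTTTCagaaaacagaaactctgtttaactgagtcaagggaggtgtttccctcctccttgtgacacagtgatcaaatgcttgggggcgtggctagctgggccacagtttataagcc

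The Tap1 stretch is the whole interval of 225 bases between the RefSeq starts of Tap1 and Psmb9, which are read away from each other. Over windows of 250 bases before to 50 after a start, the ISRE core was found in 14 of 24 interferon members with a window (58.3%), in 2 of 9 antigen presentation members (22.2%; B2m and H2-T23) and in 1079 of 27025 genes with a window (3.99%). The GAS core was found in 9 of 24 interferon members (37.5%), in 1 of 9 antigen presentation members (11.1%; Psmb8) and in 2582 of 27025 genes (9.55%). Isg15, a ubiquitin-like protein that is attached to other proteins, has 3 overlapping ISRE cores, which begin 78, 72 and 66 bases before the start. Irf8 has 2 GAS cores 171 and 153 bases before its start, Rsad2 an ISRE core 120 bases before and B2m an ISRE core 139 bases before. Of the 8 members that rose or fell, 2 held the ISRE core (Rsad2 and Ifitm3), 3 the GAS core (Irf8, Ifit2 and Ifitm3) and 4 held neither (Tap1, Tapbp, Psmb10 and Xaf1). A match describes letters in this window and shows no binding. The search counted only these exact cores, so a gene without a match may still hold a variant of the element.

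The libraries held between 16897231 and 21527886 estimated counts, and 15056 genes were tested. Levels are in CPM, which are counts divided by the scaled size of their library. Groups were compared by edgeR quasi-likelihood, each p was adjusted by the Benjamini-Hochberg method across the 15056 genes, and a gene was called under 0.05. Cdk7 measured 9.62, 11.8, 12.7 and 12.1 CPM in CNP-Cdk7cKO 1 to 4, against 21.7, 22.2, 21.4 and 20.6 CPM in Ctrl 1 to 4, a log2 fold change of -0.89 ± 0.09 (SE; adjusted p = 0.000181). Cnp, whose locus carries Cre, measured 1389 ± 61.6 CPM in CNP-Cdk7cKO and 3134 ± 137 CPM in Ctrl (SD, n = 4 each). Xist and the Y-linked genes marked all 4 CNP-Cdk7cKO libraries and Ctrl 1 as female, and Ctrl 2 to 4 as male. The 20 skeletal muscle markers were all lower, with a summed level of 107.8 to 636.4 CPM in CNP-Cdk7cKO and 616.6 to 5982 CPM in Ctrl.

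In both sets a minority of the genes rose or fell. Among the 39 members, 5 rose (Tap1, Tapbp, Psmb10, Irf8 and Ifitm3), 3 fell (Ifit2, Rsad2 and Xaf1) and 31 were not called. The called share was 20.5%, beside 11.7% of all tested genes. The median log2 fold change of the members was 0.02, with 20 above 0 and 19 below, and the median of all tested genes was 0.00. The libraries of the groups did not overlap for 11 members, 7 higher and 4 lower, while 18.8% of all tested genes did not overlap (9.34% higher and 9.51% lower). In antigen presentation 3 of 11 rose (27.3%) and 0 fell, and 9 of 11 log2 fold changes were above 0, with a median of 0.23. In the interferon response 2 of 28 rose and 3 fell (17.9% called), and 17 of 28 were below 0, with a median of -0.11. For all tested genes, 5.07% rose and 6.6% fell.

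**Figure D1:**
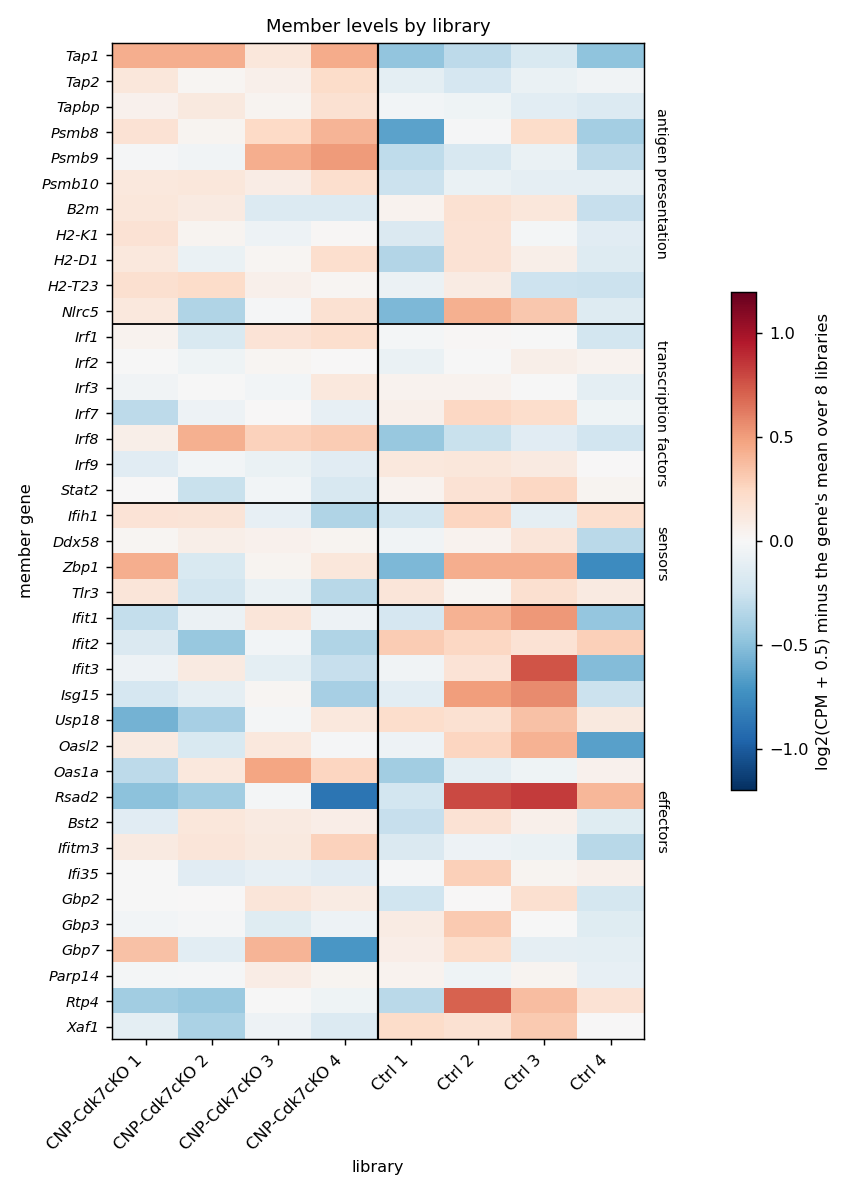
Colours give the log2 level of each of the 39 members in each library, relative to that gene's mean over the 8 libraries, with CNP-Cdk7cKO 1 to 4 left of Ctrl 1 to 4 and genes grouped by role. Tap1 is above its mean in the 4 CNP-Cdk7cKO libraries, and many interferon effectors are high in Ctrl 2 and Ctrl 3 and low in Ctrl 1 and Ctrl 4.

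**Figure D2:**
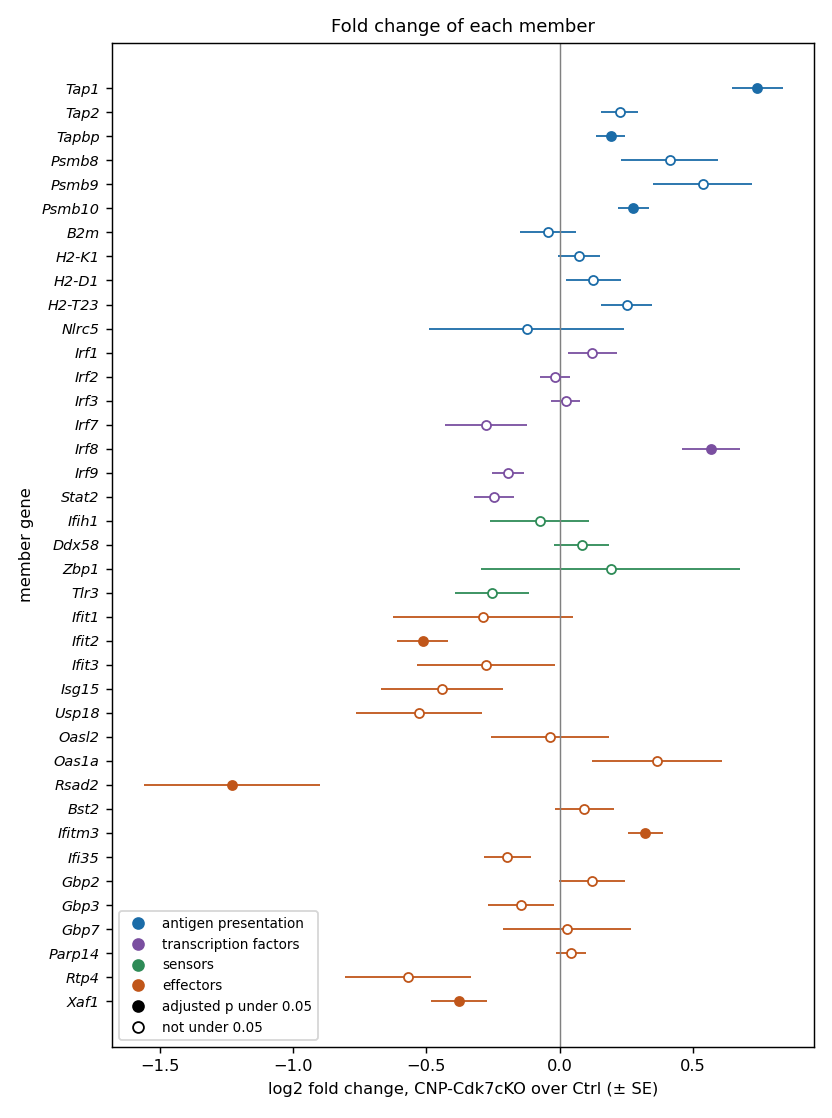
Points give the log2 fold change of each member, CNP-Cdk7cKO over Ctrl, with bars of 1 SE, and filled points passed an adjusted p of 0.05. Antigen presentation genes lie mostly right of 0, with Tap1 at 0.74, and effectors run between -1.23 (Rsad2) and 0.37 (Oas1a).

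The peptide transporter gave the largest rise of the members, in 1 of its subunits. Tap1, on chromosome 17 from 34187553 to 34197225 on the + strand (GRCm38), encodes an ATP-driven subunit of the transporter. It measured 27.4, 27.5, 22.3 and 27.6 CPM in CNP-Cdk7cKO 1 to 4, against 14.4, 16.1, 17.7 and 14.2 CPM in Ctrl 1 to 4. Each CNP-Cdk7cKO library was above each Ctrl library, and CNP-Cdk7cKO 3 lay nearest to the controls. The means were 26.2 ± 2.62 and 15.6 ± 1.65 CPM in CNP-Cdk7cKO and Ctrl (SD, n = 4 each), which is 1.67-fold, or a log2 fold change of 0.74 ± 0.09 (SE; adjusted p = 0.000854). Its partner Tap2 did not pass the test, at 20.2 ± 1.28 CPM in CNP-Cdk7cKO and 17.2 ± 0.845 CPM in Ctrl (log2 fold change 0.23 ± 0.07, adjusted p = 0.0572), although the groups did not overlap. Tapbp, the tapasin that bridges the transporter and empty class I molecules, measured 57, 59.7, 56.3 and 62.8 CPM in CNP-Cdk7cKO and 54.0, 53.2, 50.3 and 49.2 CPM in Ctrl. It rose by a small amount, a log2 fold change of 0.19 ± 0.05 (adjusted p = 0.0383).

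The within-library log2 ratio of Tap1 to another member sets the genes against each other in the same RNA. For Tap1 over Tap2 it was 0.36 ± 0.14 in CNP-Cdk7cKO and -0.14 ± 0.17 in Ctrl (SD, n = 4 each), a difference of 0.51. Of the 10 ratios of Tap1 to the other antigen presentation genes, 8 did not overlap between the groups, with differences from 0.45 (Psmb10) to 0.77 (B2m). Each of these 8 had a two-sided exact permutation p of 0.0286, the smallest that 4 against 4 libraries can give, and 0.0429 after Benjamini-Hochberg adjustment over the 12 ratios computed. The ratios to the neighbouring genes Psmb8 and Psmb9 were higher by 0.30 and 0.28 and overlapped (exact permutation adjusted p = 0.1905 and 0.343). The ratios were chosen with the rise of Tap1 known, and all 10 share Tap1, so they are not separate results. They describe how far Tap1 moved relative to each gene, and their p-values add no support for its rise.

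The immunoproteasome genes encode catalytic subunits that replace those of the constitutive proteasome. Psmb10, on chromosome 8, measured 25.9, 26.2, 25.2 and 27.3 CPM in CNP-Cdk7cKO 1 to 4, against 19.8, 22.4, 22.01 and 21.99 CPM in Ctrl 1 to 4. The groups did not overlap, and Psmb10 rose by a log2 fold change of 0.28 ± 0.06 (SE; adjusted p = 0.0113). Psmb9 measured 3.10, 3.05, 4.44 and 4.71 CPM in CNP-Cdk7cKO and 2.45, 2.69, 2.96 and 2.44 CPM in Ctrl. The groups did not overlap here either, but the SD in CNP-Cdk7cKO was 0.874 CPM against 0.245 CPM in Ctrl, and the log2 fold change of 0.54 ± 0.19 did not pass (adjusted p = 0.0919). Psmb8 averaged 9.23 ± 1.05 CPM in CNP-Cdk7cKO and 6.90 ± 1.96 CPM in Ctrl, with overlapping groups (log2 fold change 0.41 ± 0.18, adjusted p = 0.179). Tap1, Psmb8, Psmb9 and Tap2 are neighbours on chromosome 17 between 34181987 and 34216321. In the gene annotation used for these positions, Psmb9 and Tap1 overlap at their starts on opposite strands. Their RefSeq starts, used for the promoter stretches, instead have 225 bases between them. The libraries keep strand, per the labels, but whether the counting used it is not given in the sources used here.

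The class I molecules themselves were not called. B2m, the light chain shared by class I molecules, measured 227, 222, 184 and 184 CPM in CNP-Cdk7cKO and 213, 234, 226 and 169.8 CPM in Ctrl, with overlapping groups (log2 fold change -0.04 ± 0.10, adjusted p = 0.835). H2-D1, a classical heavy chain, measured 98.0, 84.6, 91.2 and 103 CPM in CNP-Cdk7cKO and 70.02, 101, 93.9 and 80.3 CPM in Ctrl (log2 fold change 0.13 ± 0.11, adjusted p = 0.483). The other classical heavy chain, H2-K1, had a log2 fold change of 0.07 ± 0.08, and the nonclassical H2-T23, a ligand of NK cell receptors, 0.25 ± 0.10 (adjusted p = 0.610 and 0.121). Of the 31-base words in their transcripts, 22.8% for H2-K1, 26.7% for H2-D1 and 24.5% for H2-T23 also occur in other genes, so the estimated split of reads among class I genes is uncertain. Nlrc5, the transactivator of class I genes, was near the lowest levels measured, at 0.761 ± 0.201 CPM in CNP-Cdk7cKO and 0.818 ± 0.384 CPM in Ctrl (log2 fold change -0.12 ± 0.37, adjusted p = 0.868).

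Per kilobase of exon, the levels of these genes differ widely. B2m had 241 CPM per kilobase over the 8 libraries, above 99.2% of tested genes, and H2-D1 had 35.0 CPM per kilobase. Tapbp and Psmb10 had 15.2 and 13.98 CPM per kilobase. Tap2 had 4.95 CPM per kilobase and Tap1 had 3.82, above 48.2% of tested genes. Nlrc5 had 0.0929 CPM per kilobase, above 0.7% of tested genes.

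Tap1 and Psmb10 passed in each of the 8 fits that leave out a library, with log2 fold changes from 0.70 to 0.81 and from 0.24 to 0.30. Tapbp was lost without CNP-Cdk7cKO 1, 2 or 4 (adjusted p = 0.0562, 0.0883 and 0.0725) and without Ctrl 2, 3 or 4 (0.0715, 0.0982 and 0.109), without a filter on low counts (0.0512), and with a covariate for Xist (0.545) or muscle markers. With Xist in the model Tap1 stayed called (0.83, adjusted p = 0.0334) and Psmb10 did not (0.40, adjusted p = 0.0578). Muscle markers in the model left Tap1 not called (0.81, adjusted p = 0.0719). Ctrl 1 was the only female control, so fold changes with Xist in the model rest mainly on that library. They cannot show that a change is free of sex. In female libraries alone the log2 fold changes of Tap1 and Psmb10 were 0.86 and 0.40.

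**Figure D3:**
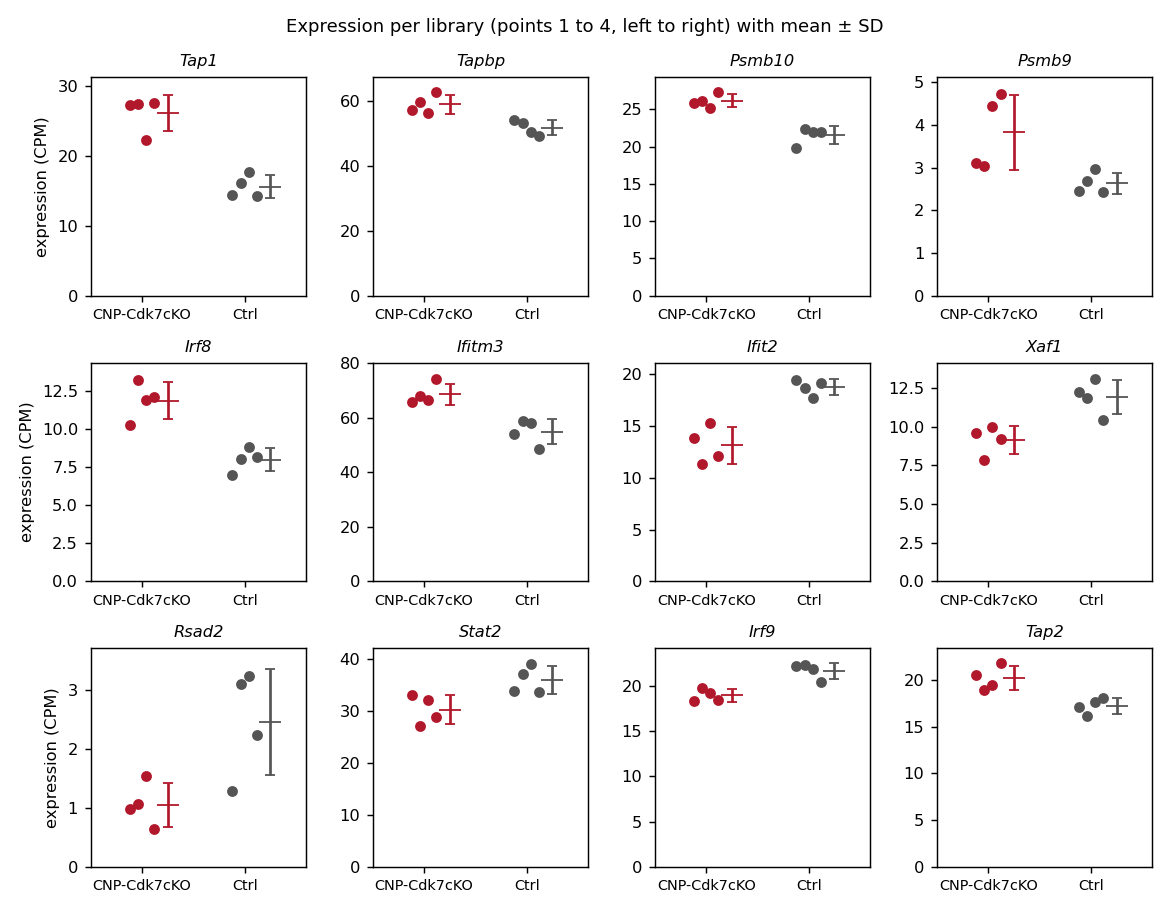
Points give the CPM of 12 members in each library, 1 to 4 from left to right, with CNP-Cdk7cKO left of Ctrl and the mean and SD of each group. Tap1, Psmb10, Irf8 and Ifitm3 are higher in each CNP-Cdk7cKO library than in any Ctrl library, Ifit2 and Xaf1 are lower, and the groups of Rsad2 overlap.

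Among the 7 transcription regulators of the interferon response, 1 rose and 0 fell, with a median log2 fold change of -0.02. Irf8, a factor of macrophages, dendritic cells and other blood-derived cells, was at 10.2, 13.2, 11.9 and 12.1 CPM in CNP-Cdk7cKO 1 to 4, against 6.98, 8.01, 8.82 and 8.19 CPM in Ctrl 1 to 4. Each CNP-Cdk7cKO library was above each Ctrl library, and the log2 fold change was 0.57 ± 0.11 (SE; adjusted p = 0.00745). Some macrophage markers moved with it: 6 of 16 rose and 0 fell, with a median log2 fold change of 0.29, and their summed level was 619.4 to 766.4 CPM in CNP-Cdk7cKO and 514.6 to 654.0 CPM in Ctrl. The 16 genes were detected in all 8 libraries, and Trem2, a receptor of phagocytes, led them with 16.03 ± 1.54 CPM in CNP-Cdk7cKO and 10.2 ± 0.754 CPM in Ctrl (log2 fold change 0.66 ± 0.09, adjusted p = 0.00171). The list was not uniform, since 3 of the 16 had fold changes below 0: Mrc1 at -0.02, Mertk at -0.08 and Cd163, a scavenger receptor, at -0.65 ± 0.21 on the log2 scale. Cd163 averaged 5.53 ± 1.64 CPM in CNP-Cdk7cKO and 8.67 ± 1.59 CPM in Ctrl, which did not pass (adjusted p = 0.0718 by edgeR) but was called lower by DESeq2 and limma-voom (adjusted p = 0.017 and 0.0165); these 3 were named after their values were seen. With the macrophage markers as a covariate, the log2 fold change of Irf8 was 0.46 and did not pass (adjusted p = 0.0807). In whole nerve, more cells of a type and more RNA per cell cannot be told apart, nor can fewer cells and less RNA per cell. Irf8 passed in all 8 fits that leave out a library (0.51 to 0.63) and did not pass with Xist as a covariate (0.76, adjusted p = 0.0604).

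The 2 listed genes of the complex that carries the type I signal were lower in each CNP-Cdk7cKO library but did not pass the test. Stat2 measured 33.0, 27.2, 32.0 and 28.8 CPM in CNP-Cdk7cKO and 33.8, 37.1, 39.1 and 33.6 CPM in Ctrl (log2 fold change -0.25 ± 0.08, adjusted p = 0.0564). Irf9 measured 18.4, 19.8, 19.2 and 18.5 CPM in CNP-Cdk7cKO and 22.2, 22.3, 21.9 and 20.4 CPM in Ctrl (log2 fold change -0.19 ± 0.06, adjusted p = 0.0582). Both fold changes were near the threshold: limma-voom called both (adjusted p = 0.0499 each) and DESeq2 called Stat2 (adjusted p = 0.0335).

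The other regulators had log2 fold changes between -0.28 and 0.12. Irf7, which drives the later wave of interferon genes, averaged 2.82 ± 0.309 CPM in CNP-Cdk7cKO and 3.41 ± 0.371 CPM in Ctrl (log2 fold change -0.28 ± 0.15, adjusted p = 0.291). Irf3, which starts interferon transcription after sensing, averaged 54.4 ± 2.99 CPM in CNP-Cdk7cKO and 53.6 ± 2.81 CPM in Ctrl. Irf1 averaged 21.7 ± 2.56 and Irf2, its antagonist, 21.2 ± 0.513 CPM in CNP-Cdk7cKO, against 19.97 ± 1.5 and 21.4 ± 1.00 CPM in Ctrl.

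None of the 4 sensors of foreign or misplaced nucleic acid was called, and their median log2 fold change was 0.00. Ddx58, which encodes the RNA sensor RIG-I, measured 11.6, 12.1, 11.9 and 11.7 CPM in CNP-Cdk7cKO and 11.1, 11.8, 12.7 and 9.07 CPM in Ctrl (log2 fold change 0.08 ± 0.11, adjusted p = 0.672). Tlr3, an endosomal receptor for RNA, measured 5.38, 4.06, 4.54 and 3.73 CPM in CNP-Cdk7cKO and 5.39, 4.91, 5.58 and 5.22 CPM in Ctrl (log2 fold change -0.25 ± 0.14, adjusted p = 0.283). The groups overlapped for both. Ifih1, which encodes the RNA sensor MDA5, and Zbp1, a sensor of Z-form nucleic acid with 115 counts over the 8 libraries, had log2 fold changes of -0.08 ± 0.19 and 0.19 ± 0.49.

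Among the 17 effectors, 1 rose and 3 fell, and the median log2 fold change was -0.20. Ifit2, an interferon-induced protein that acts on RNA and translation, fell with the smallest p of the effectors. It measured 13.9, 11.3, 15.3 and 12.1 CPM in CNP-Cdk7cKO 1 to 4, against 19.5, 18.7, 17.7 and 19.2 CPM in Ctrl 1 to 4. The Ctrl libraries lay within a narrow band above each CNP-Cdk7cKO library, and the log2 fold change was -0.51 ± 0.09 (SE; adjusted p = 0.00624). Its paralogs Ifit1 and Ifit3, beside it on chromosome 19, had log2 fold changes of -0.29 ± 0.34 and -0.28 ± 0.26 (adjusted p = 0.642 and 0.547). The within-library ratio of Ifit2 to either of them was lower by 0.37 and 0.33 on the log2 scale, which did not pass (exact permutation adjusted p = 0.3085 and 0.371), so these data do not show that Ifit2 differed from its paralogs. Ifit3 shares 61.8% of its 31-base words with Ifit3b and its level is uncertain, while Ifit2 shares 0.0% with any gene.

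Xaf1, an interferon-induced protein linked to cell death, measured 9.57, 7.88, 9.98 and 9.23 CPM in CNP-Cdk7cKO and 12.2, 11.9, 13.1 and 10.4 CPM in Ctrl. The groups did not overlap, and it fell by a log2 fold change of -0.38 ± 0.11 (adjusted p = 0.04). Rsad2, which encodes the antiviral enzyme viperin, had the most negative fold change of the members on few reads, 281 counts over the 8 libraries. It measured 0.983, 1.063, 1.55 and 0.638 CPM in CNP-Cdk7cKO and 1.29, 3.10, 3.24 and 2.24 CPM in Ctrl (log2 fold change -1.23 ± 0.33, adjusted p = 0.0348). Ctrl 1 lay within the CNP-Cdk7cKO range, so the groups of Rsad2 overlapped. With Xist as a covariate its log2 fold change was -0.41 (adjusted p = 0.743).

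Ifitm3, a membrane protein that blocks virus entry, rose. It measured 65.9, 67.9, 66.4 and 74.4 CPM in CNP-Cdk7cKO 1 to 4, against 54.2, 58.9, 57.9 and 48.6 CPM in Ctrl 1 to 4. No Ctrl library reached a CNP-Cdk7cKO library, and the log2 fold change was 0.32 ± 0.07 (SE; adjusted p = 0.0111). At 91.1 CPM per kilobase it was the most abundant effector per length, above 97.4% of tested genes. Of its 31-base words, 20.5% occur in other genes.

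The other 13 effectors were not called, with log2 fold changes between -0.57 and 0.37. Isg15, with its 3 ISRE cores, measured 3.00, 3.24, 3.59 and 2.55 CPM in CNP-Cdk7cKO and 3.18, 5.22, 5.49 and 2.88 CPM in Ctrl (log2 fold change -0.44 ± 0.23, adjusted p = 0.250). Rtp4, a chaperone of membrane receptors, measured 2.43, 2.37, 3.39 and 3.29 CPM in CNP-Cdk7cKO and 2.63, 5.89, 4.55 and 3.90 CPM in Ctrl (log2 fold change -0.57 ± 0.24, adjusted p = 0.154), and it was called without Ctrl 1 (adjusted p = 0.04996). In both genes Ctrl 2 and Ctrl 3 were high and Ctrl 1 lay among the CNP-Cdk7cKO values. Usp18, which removes Isg15 from proteins and dampens the receptor, had a log2 fold change of -0.53 ± 0.24, and Oasl2 and Oas1a, of the family that senses viral RNA and triggers its decay, had -0.04 ± 0.22 and 0.37 ± 0.24. Oas1a shares 68.8% of its 31-base words with other genes and is uncertain. The guanylate-binding proteins Gbp2, Gbp3 and Gbp7 were at 0.12, -0.14 and 0.03, Ifi35 at -0.20, Bst2, which tethers budding virus, at 0.09, and Parp14 at 0.04 on the log2 fold change scale.

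Ifit2 and Ifitm3 passed in all 8 fits that leave out a library (-0.59 to -0.45 and 0.27 to 0.36) but not with Xist as a covariate (-0.56 and 0.31, adjusted p = 0.0998 and 0.221). Xaf1 was lost without CNP-Cdk7cKO 1, 2 or 4 (adjusted p = 0.0692, 0.0950 and 0.0685) and without Ctrl 1, 2 or 3 (0.0826, 0.0907 and 0.111), and Rsad2 without CNP-Cdk7cKO 1, 2 or 4 (0.0875, 0.0777 and 0.0856) and without Ctrl 2, 3 or 4 (0.101, 0.101 and 0.0511).

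The 2 sets were compared by their mean log2 level in each library, after subtracting each gene's mean over the 8 libraries. For antigen presentation this level was 0.151, 0.056, 0.076 and 0.203 in CNP-Cdk7cKO 1 to 4, against -0.266, 0.017, -0.009 and -0.228 in Ctrl 1 to 4, a difference of 0.24. The groups did not overlap, but Ctrl 2 and Ctrl 3 lay close below CNP-Cdk7cKO 2. This mean includes Tap1, the member with the largest rise, and without Tap1 Ctrl 2 would lie above CNP-Cdk7cKO 2. The lack of overlap therefore rests on Tap1 and is not a trait of the other members as a set. The summed level of all antigen presentation members, Tap1 included, overlapped, at 486.3 to 554.2 CPM in CNP-Cdk7cKO and 429.6 to 538.8 CPM in Ctrl. For the interferon response it was -0.067, -0.092, 0.049 and -0.090 in CNP-Cdk7cKO 1 to 4, against -0.075, 0.190, 0.198 and -0.113 in Ctrl 1 to 4, a difference of -0.10. Here Ctrl 2 and Ctrl 3 were the highest of the 8 libraries, and CNP-Cdk7cKO 1, 2 and 4 lay close to Ctrl 1 and Ctrl 4. No p is given for these levels, since the members were chosen with earlier results known.

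The spread of the controls was shared by many genes of both sets. Of the 28 interferon members, 12 had their highest Ctrl value in Ctrl 2 and 13 in Ctrl 3, and 17 had their lowest in Ctrl 4 and 9 in Ctrl 1. Of the 11 antigen presentation members, 6 were highest in Ctrl 2 and 3 in Ctrl 3, and 5 were lowest in Ctrl 4 and 5 in Ctrl 1. The 17 effectors had a mean level of -0.133, -0.132, 0.066 and -0.130 in CNP-Cdk7cKO, against -0.068, 0.248, 0.258 and -0.110 in Ctrl. The summed neutrophil markers were at 3.88 to 7.70 CPM in CNP-Cdk7cKO and at 4.10, 9.05, 7.60 and 3.32 CPM in Ctrl 1 to 4, and the summed endothelial markers at 370.8 to 431.8 CPM in CNP-Cdk7cKO and at 374.0, 457.5, 493.1 and 400.1 CPM in Ctrl 1 to 4. Both sums were higher in Ctrl 2 and Ctrl 3 than in the other controls, as were the low lymphocyte and dendritic sums. The macrophage, Schwann, fibroblast and muscle sums did not share this order. Nor did Csf3r, the most abundant neutrophil marker, at 2.82, 4.19, 2.35 and 2.15 CPM in Ctrl 1 to 4. The part of these cells in the interferon levels was not tested.

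**Figure D4:**
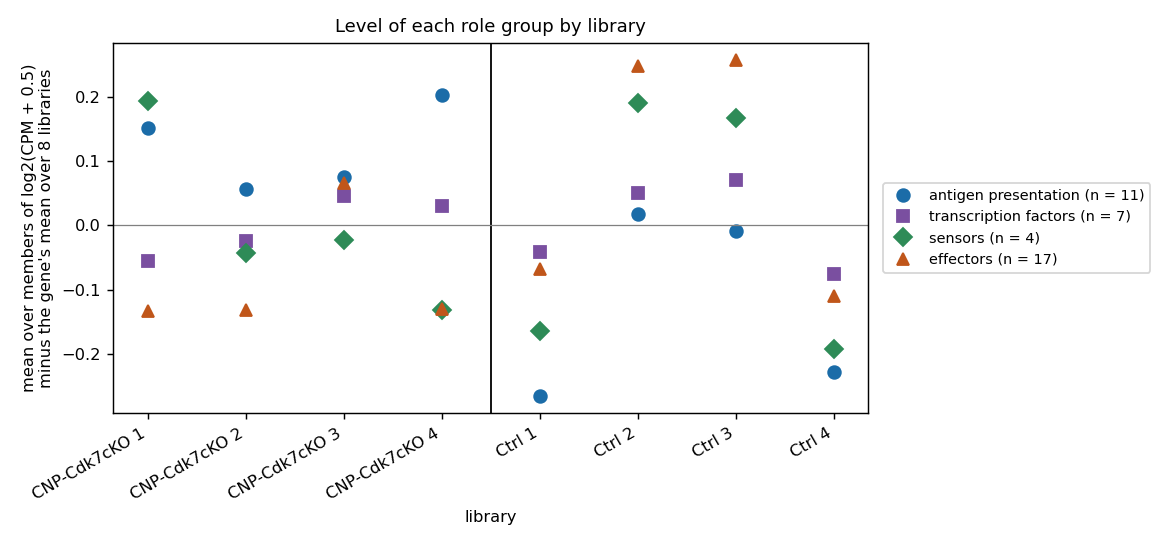
Points give, for each role and library, the mean log2 level of its members relative to each gene's mean, with CNP-Cdk7cKO left of Ctrl and libraries 1 to 4 from left to right. The antigen presentation mean, which includes Tap1, is higher in each CNP-Cdk7cKO library than in any Ctrl library, by a narrow margin that rests on Tap1. For effectors Ctrl 2 and Ctrl 3 stand at 0.248 and 0.258, above all other libraries.

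The pathway around the members was read from 78 other genes, of which 71 were tested, 5 rose and 2 fell (9.86% called, against 11.7% of all tested genes), with a median log2 fold change of 0.01. Among 16 ligands, receptors and signal proteins, 11 were tested, 2 rose and 2 fell. Ifngr2, a chain of the interferon gamma receptor, averaged 73.9 ± 6.22 CPM in CNP-Cdk7cKO and 61.2 ± 1.32 CPM in Ctrl (log2 fold change 0.27 ± 0.06, adjusted p = 0.0143). Jak2, a kinase that this receptor uses, averaged 32.9 ± 1.22 CPM in CNP-Cdk7cKO and 38.8 ± 1.04 CPM in Ctrl (log2 fold change -0.24 ± 0.05, adjusted p = 0.0107). The groups of neither gene overlapped. Socs3, a feedback inhibitor of cytokine signals, rose (log2 fold change 0.41 ± 0.09, adjusted p = 0.0173) and was lost without Ctrl 3 (adjusted p = 0.0552). The interferon genes Ifnb1, Ifna4, Ifnk and Ifne had 0 counts in 158026766 over the 8 libraries, which allows up to 0.019 CPM from counting error alone, and Ifng had 1 count.

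Of 14 other nucleic acid sensing genes, 1 rose and 0 fell. This was Irf5, a factor of macrophages and B cells, at 8.82 ± 0.744 CPM in CNP-Cdk7cKO and 6.58 ± 0.815 CPM in Ctrl (log2 fold change 0.42 ± 0.12, adjusted p = 0.0428), and it was lost whichever library was left out (adjusted p up to 0.101). Of 30 other interferon-stimulated genes, 29 were tested and 0 rose or fell, with a median of -0.03. The most abundant of them, Ifitm2, averaged 142 ± 10.5 CPM in CNP-Cdk7cKO and 130.1 ± 8.22 CPM in Ctrl (log2 fold change 0.13 ± 0.06, adjusted p = 0.243), and the galectin-binding protein Lgals3bp 37.2 ± 2.37 CPM and 32.2 ± 4.46 CPM in CNP-Cdk7cKO and Ctrl (0.21 ± 0.09, adjusted p = 0.171).

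Among 18 other class I genes, 17 were tested, 2 rose and 0 fell, with a median of 0.02. H2-Q4, a nonclassical class I heavy chain, measured 38.1, 32.5, 35.3 and 43.6 CPM in CNP-Cdk7cKO and 22.2, 27.04, 25.5 and 22.8 CPM in Ctrl. The groups did not overlap, and the log2 fold change was 0.62 ± 0.09 (adjusted p = 0.0024), close in size to that of Tap1. How much sequence H2-Q4 shares with other class I genes was not measured here, and its reads could be split with near copies. Calr, a chaperone of the loading complex that also serves other glycoproteins, averaged 735 ± 28.8 CPM in CNP-Cdk7cKO and 643 ± 12.5 CPM in Ctrl (log2 fold change 0.19 ± 0.04, adjusted p = 0.01). Of 7 class II genes, which present peptides from outside the cell, 6 were tested and 0 were called, with a median of 0.23. H2-DMa averaged 67.9 ± 4.34 CPM in CNP-Cdk7cKO and 66.4 ± 8.09 CPM in Ctrl, and H2-DMb1 39.7 ± 7.11 CPM and 41.6 ± 6.01 CPM in CNP-Cdk7cKO and Ctrl.

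Markers of the cells in the nerve moved beside these genes. Of 7 Schwann cell markers, 4 fell and 0 rose. Erbb3, the receptor chain through which Schwann cells sense neuregulin, averaged 222 ± 16.4 CPM in CNP-Cdk7cKO and 297 ± 10.5 CPM in Ctrl (log2 fold change -0.42 ± 0.06, adjusted p = 0.00116). Of 8 fibroblast and perineurial markers, 2 rose (Pdgfra and Col1a1) and 0 fell. Of 10 endothelial markers 0 were called. Of 12 lymphocyte and NK cell markers, 3 were tested and 0 called, with a summed level of 9.62 to 12.6 CPM in CNP-Cdk7cKO and 6.49 to 10.4 CPM in Ctrl, and 7 of the 12 had 0 counts in at least 1 library. Of 7 neutrophil markers 3 were tested and 0 called, and of 8 dendritic cell markers, which include the member Bst2, 2 were tested and 0 called. With the mean log2 level of the macrophage markers as a covariate Tap1 and Ifit2 stayed called (log2 fold change 0.79 and -0.53, adjusted p = 0.00602 and 0.0367), and the other 6 called members did not.

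**Figure D5:**
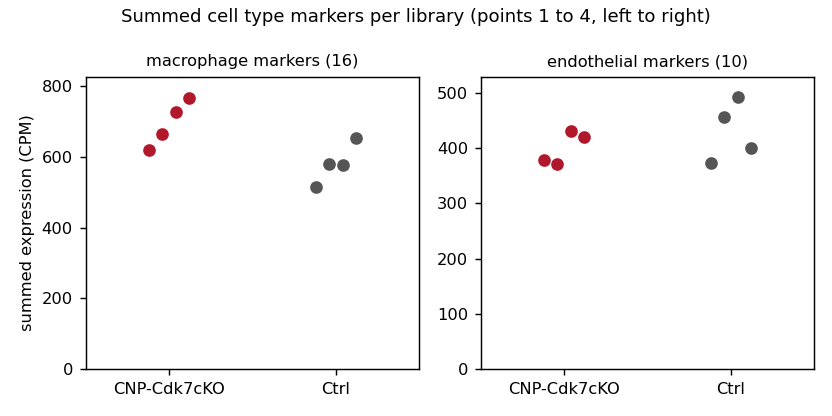
Points give the summed CPM of macrophage and endothelial markers in each library, with CNP-Cdk7cKO left of Ctrl. Macrophage sums are 619.4 to 766.4 CPM in CNP-Cdk7cKO and 514.6 to 654.0 CPM in Ctrl, with overlap, and endothelial sums are highest in Ctrl 2 and Ctrl 3.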

How the data were processed

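Stranded polyadenylated libraries were made from sciatic nerve RNA, per the labels. The authors deposited estimated counts for each gene, produced with STAR and Salmon on GRCm38, per the submitters' processing notes. Versions, settings, the use of strand and the annotation are not given in the sources. Before the count test the values were rounded; 8.29% were not whole, and a library total moved by at most 0.000113%. Symbols matched 55141 of 55487 identifiers. Replicates differed by more than counting, since chi-square divided by its degrees of freedom was 3.86 to 17.6 between libraries of a group.

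The filter filterByExpr (at least 10 counts, 15 in total) left 15056 genes, which were normalized by TMM and compared with the quasi-likelihood test of edgeR 4.0.16 (R 4.3.3, limma 3.58.1) with Benjamini-Hochberg adjustment. The members, the other lists, the ratios and the alternatives were chosen with earlier results of these data known. Values per library are given for called members and, in a role without a call, for the 2 most abundant; others given per library were chosen after their values were seen. Of the other lists, up to 4 called genes, or the 2 most abundant, were named, and some are not reported here. Levels per library use log2(CPM + 0.5), and levels per length use exonic bases.

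Alternatives were RLE factors, no filter, 1 CPM in 4 libraries, DESeq2 1.42.0, limma-voom, the replicate number as a block, Xist, muscle or macrophage markers as a covariate, female libraries alone (4 CNP-Cdk7cKO and Ctrl 1, whose spread is assumed to be like the others), and each library left out. Same-numbered libraries deviated together only weakly, with correlations of 0.04, 0.08, 0.13 and 0.01. This shows no clear pairing by number but cannot exclude one, and the main fit used no pairs. The fit was tested on simulated data, with 50 genes planted for each size of change. Of the genes planted with a 1.25-fold change, 16% were called, and of those with a 1.5-fold change, 62%. For 2-fold and 3-fold changes the shares were 74% and 94%. Small changes were thus often missed, and a gene that was not called is not shown to be unchanged. Promoter windows are from RefSeq; 33 of the 39 members had one. Shared sequence was counted as 31-base words of annotated transcripts that also occur in another gene.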

Additional observations from a re-analysis of the deposited data

Results flagged for a closer look

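Of 78 groups of 4 libraries tested for a library far from the others, 2 held one, and chance gives about 1 in 20. Tap1 measured 22.3 CPM in CNP-Cdk7cKO 3, the lowest of the CNP-Cdk7cKO libraries, while the other 3 lay between 27.4 and 27.6 CPM. Psmb10 measured 19.8 CPM in Ctrl 1, the lowest of the Ctrl libraries, while the other 3 lay between 21.99 and 22.4 CPM.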

How the results depend on the processing

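Over 18 alternatives, the 8 called members gave 144 comparisons, of which 95 kept the call, 49 lost it and 0 reversed. With Xist, the muscle markers, the macrophage markers as a covariate, and in female libraries alone, genes rose in number 81, 79, 411 and 37 and fell in number 177, 104, 628 and 77, against 763 and 994; leaving out a library gave 470 to 655 and 653 to 860. The same settings left 0 interferon members higher each, and 0, 0, 1 and 0 lower (limma-voom 5, without a library 1 to 3), and 1, 0, 1 and 0 antigen presentation members higher. The median log2 fold change moved to -0.25 for interferon members with the muscle markers, and to 0.39 and 0.40 for antigen presentation with Xist and in female libraries. The cause was not tested; sex, muscle RNA and genotype are partly tied in these libraries. With the replicate number as a block, 682 genes rose and 926 fell, 2 interferon members rose and 3 fell, and 2 antigen presentation members rose, Tapbp being lost (adjusted p = 0.0681); 1 of 4 libraries per group correlated best with its own number. Directions turned in 56 of 699 comparisons, in 16 members that were not called. With Xist the log2 fold changes that turned were Nlrc5 0.81, Irf2 0.077, Irf3 -0.042, Ifih1 0.23, Ifit1 0.013, Gbp7 -0.072, Parp14 -0.030 and Rtp4 0.039. In female libraries they were Nlrc5 1.03, Irf2 0.074, Irf3 -0.030, Ifih1 0.23, Ifit1 0.22, Oasl2 0.074, Gbp7 -0.043, Parp14 -0.024 and Rtp4 0.12. With muscle markers they were Irf1 -0.20, Irf2 0.036, Irf3 -0.14, Ifih1 0.32, Ddx58 -0.10, Zbp1 -0.42, Gbp7 -0.12 and Parp14 -0.080. With macrophage markers they were B2m 0.16, Oasl2 0.067, Oas1a -0.10 and Bst2 -0.025, by limma-voom Irf3 -0.011, and with the block Oasl2 0.005 and Gbp7 -0.024. Leaving out a library gave B2m -0.13 to 0.012, Nlrc5 -0.34 to 0.10, Irf2 -0.045 to 0.004, Irf3 -0.018 to 0.041, Ifih1 -0.16 to 0.035, Ddx58 -0.008 to 0.15, Zbp1 -0.12 to 0.53, Ifit3 -0.47 to 0.031, Oasl2 -0.23 to 0.13 and Gbp7 -0.13 to 0.23. At this depth Zbp1, Nlrc5, Ifit1 and Rsad2 rest on 115, 126, 164 and 281 counts over the 8 libraries.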
